A study of Mus musculus with 7 samples.

Results

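The diet NWD1 was compared with the control diet AIN76A in Bmi1-marked cells of mouse intestinal crypts, library by library. The members are the 3 NWD1 and the 2 AIN76A libraries, 5 of the 7 libraries of the series, taken by their labelled diet. The other 2 libraries are from the diet NWD2. They entered the shared estimate of the spread, the choice of genes tested, the scaling between libraries and the mean levels used as cut-offs, but not the contrast. All mice carried BmicreERT2 and Rosa26RFP, that is, a tamoxifen-inducible Cre recombinase at Bmi1 and a red fluorescent reporter at Rosa26 that Cre switches on. Feeding of the purified diets began at weaning, and the mice were 3 months old. Cells of dispersed crypts were sorted for high red fluorescence, for Epcam, a surface protein of epithelium, and against CD45, a surface protein of leukocytes, and RNA was taken from the sorted bulk. Of the 5 libraries, 4 are labelled male. NWD1 replicate 2 is labelled female, so its sex cannot be told apart from that library. The labels do not say whether each library is 1 animal or a pool, nor when the reporter was induced, so the p-values measure the spread between these libraries, which may be technical. A Cre line of this kind also marks the descendants of the cells in which Cre acted. Here fewer cells of a type and less RNA per cell cannot be told apart.

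AIN76A is a purified rodent diet used as a control. NWD1 is known as a purified diet modelled on Western intake, richer in fat than AIN76A and poorer in calcium, vitamin D3, folate and other methyl donors, and fibre. Vitamin D acts through its receptor Vdr, which as a partner of the retinoid X receptor turns on genes that carry calcium across the enterocyte. Bmi1, a Polycomb protein, has been used to mark a slowly cycling crypt population that can restore the crypt after injury, and Bmi1-reporter cells have also been described as rich in secretory cells.

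The labelled cell type was only partly borne out by its markers. The level of Bmi1 in CPM (counts scaled to a common total, on library sizes scaled by edgeR's trimmed mean of M-values) was 2.41 and 3.72 in the AIN76A libraries and 3.91, 2.12 and 5.25 in the NWD1 libraries. Epcam stood at 510 and 986 CPM on AIN76A and at 1338, 1182 and 1103 CPM on NWD1. Ptprc, which encodes CD45, lay between 1.51 and 5.75 CPM. The cells were thus clearly epithelial, with Bmi1 transcript at a low level in both diets. Xist, the transcript of the inactive X chromosome, reached 47.8 CPM in NWD1 replicate 2, and the other 4 libraries had no more than 0.0414 CPM. Products of several secretory lineages were present in all 5 libraries, among them Lyz1 of Paneth cells, Muc2 of goblet cells, Chga of enteroendocrine cells and Dclk1 of tuft cells.

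Depth and library structure set what the comparison can show. The total counts were between 14034315, in NWD1 replicate 3, and 65822352, in NWD1 replicate 2. Over 9317 genes whose mean log2 CPM reached 2, AIN76A replicate 1 and replicate 2 differed at least 2-fold in 7.48% of genes. AIN76A replicate 2 differed at least 2-fold from the NWD1 libraries in 1.61%, 4.84% and 2.55% of genes, and AIN76A replicate 1 did so in 8.35%, 17.4% and 20.2%. AIN76A replicate 2 therefore lay closer to each NWD1 library than to the other library of its own diet. The pairs within NWD1 differed at least 2-fold in 6.54%, 7.75% and 5.0% of genes. The deposited TPM table has no column for NWD1 replicate 3, and 1 of its columns, headed as NWD2 replicate 3, matched no sample and was not used. NWD1 replicate 3 also carries the i5 index of the NWD2 libraries, which none of the other 4 libraries carries. Its diet is taken from its label and is less certain than that of the others, and this bears on every NWD1 mean and every count over all NWD1 libraries. Without it edgeR called 0 genes as well.

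**Figure D1:**
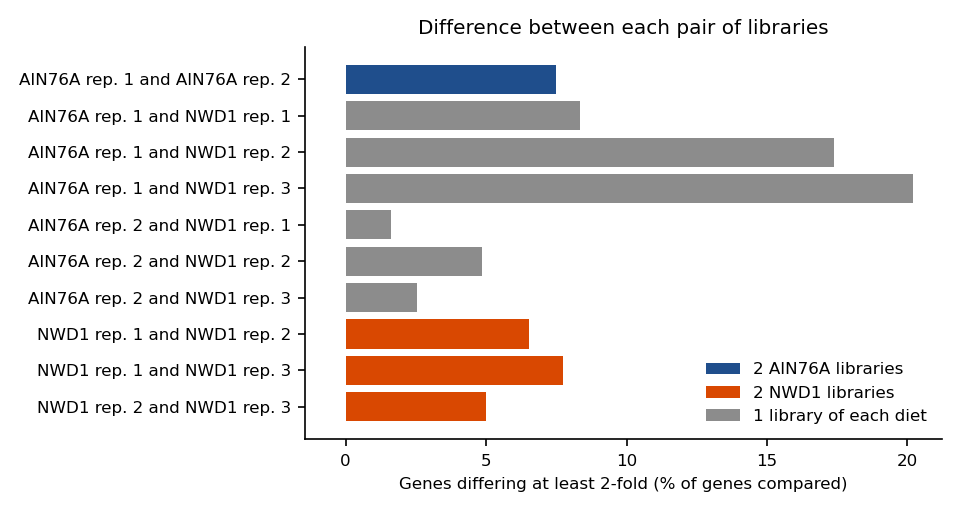
Share of genes differing at least 2-fold between each pair of libraries (x axis, percent of 9317 genes whose mean log2 CPM reached 2). The 3 pairs of AIN76A replicate 2 with an NWD1 library, from 1.61% to 4.84%, lie below the AIN76A pair at 7.48%.

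The libraries also differed by transcript length. Genes were divided into 10 bins by length. In the shortest bin, with a longest annotated transcript of at most 995 bases, the median deviation from the mean of the 5 libraries was 0.31 on the log2 scale in AIN76A replicate 1 and -0.30 in NWD1 replicate 3. In the longest bin, from 6408 bases, the same medians were -0.23 and 0.20. NWD1 replicate 1 sloped as AIN76A replicate 1 did, from 0.13 to -0.13, and AIN76A replicate 2 stayed between -0.04 and 0.07. As a result the median log2 fold change of NWD1 over AIN76A went from -0.39 in the shortest bin to 0.23 in the longest. A fit with each library's length trend taken out, added after the data were seen, left -0.15 and 0.04. Its values are given below for several lists of short or long genes.

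**Figure D2:**
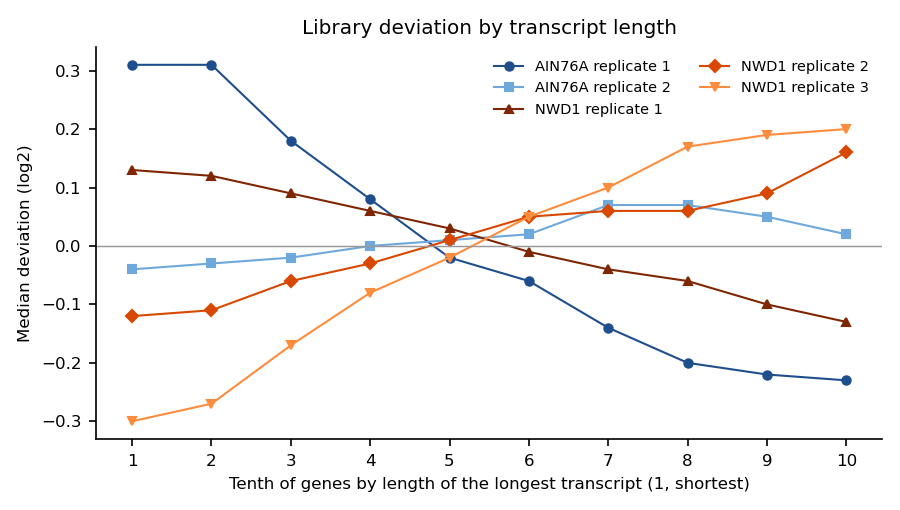
Median deviation of each library (y axis, log2 of CPM plus 0.5, minus the mean of the 5 libraries) in 10 bins of genes ordered by the length of the longest transcript (x axis). AIN76A replicate 1 runs from 0.31 to -0.23 and NWD1 replicate 3 from -0.30 to 0.20.

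Across the 14626 genes tested, no gene passed an adjusted p of 0.05 between NWD1 and AIN76A (edgeR quasi-likelihood test, Benjamini-Hochberg adjustment, 0.0% called). The smallest adjusted p was 0.878. At an unadjusted p under 0.05, 369 genes were higher on NWD1 (2.52%) and 131 lower (0.896%), and limma voom called 0 genes as well. In simulated counts of the same design, the edgeR test found 2.99% of genes with a log2 fold change of 1, 61.2% with 2 and 78.8% with 3. It also called 5 unchanged genes. The simulated counts varied gene by gene, without library-wide trends such as that by transcript length. Library by library, 1673 genes were higher in every NWD1 library than in both AIN76A libraries (11.4%) and 1260 were lower (8.61%). With so few libraries many genes separate in this way without any effect of diet, and these counts were not tested against that. By the sign of the fitted fold change 50.6% of genes were higher and 49.4% lower, with a median log2 fold change of 0.01. On log2(TPM + 1), without NWD1 replicate 3, 65.6% were higher and the median was 0.12, and scaling by library size alone gave a median of 0.11.

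Other tests called few genes, and each rested on few libraries or few counts. DESeq2 called AI662270 alone, 1 of 14618 genes with an adjusted p (0.00684%, adjusted p = 0.0267). Its levels were 2.03 and 0.193 CPM on AIN76A, and no read was counted in the 3 NWD1 libraries. limma on log2(TPM + 1) called mt-Co3 alone, 1 of 11427 genes (0.00875%, adjusted p = 0.000356). This mitochondrial gene had 5049 and 6584 counts in NWD1 replicates 1 and 2, none in NWD1 replicate 3, 10 in AIN76A replicate 1 and none in AIN76A replicate 2, so the libraries overlap.

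Without the filter on low counts, edgeR called 61 genes higher (0.249%) and 24 lower (0.0981%) of 24477. In that fit the median prior degrees of freedom were infinite, against 5.29 in the fit with the filter. For most genes the quasi-dispersion was then that of a trend shared by genes of like abundance. Of these 85 genes, 68 were among the 14626 tested, 34 of the 68 did not overlap between the diets, and 16 of the 85 had no count in 1 of the diets. The smallest adjusted p, 8.66e-72, was for Cdh4, which had 416 CPM in NWD1 replicate 1, while the other 4 libraries had no more than 0.0725 CPM. Xist, which marks the female library, was among the 3 smallest. Among the 85 were 8 of the 24 genes named next, namely Chd3, Chka, Slc30a10, Slc16a9, Ccnl1, Ccl20, Defa17 and Tff3. Their adjusted p in that fit was between 0.000603 for Chka and 0.0401 for Tff3.

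The named genes are the 12 of smallest p in each direction among eligible genes whose mean log2 CPM reached 2 and whose diets did not overlap. Symbols that look like clone or predicted-gene names were not eligible. D4Wsu53e was left out in this way, at 45.3 and 48.8 CPM on AIN76A and 113, 235 and 106 CPM on NWD1. All 24 had an edgeR adjusted p of 0.878. Being chosen for not overlapping, they describe the contrast and do not test it. Among those higher on NWD1, Chka, choline kinase, which makes the first step from choline to phosphatidylcholine, had 27.2 and 32.1 CPM on AIN76A and 59.9, 170 and 70.4 CPM on NWD1. Its mean was 29.7 ± 3.48 CPM (SD, n = 2) on AIN76A and 100 ± 60.9 CPM (SD, n = 3) on NWD1, a log2 fold change of 1.76 (SE 0.46). All 3 NWD1 libraries were high and replicate 2 was the highest.

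Chd3, a chromatin remodelling ATPase of the NuRD complex, had 7.67 and 8.68 CPM on AIN76A and 16.5, 46.4 and 20.3 CPM on NWD1, a log2 fold change of 1.77 (SE 0.45). Slc16a9, a carnitine and monocarboxylate transporter, had 5.37 and 7.18 CPM on AIN76A and 14, 15.2 and 24.8 CPM on NWD1. Gclm, the modifier subunit of the enzyme that starts glutathione synthesis, had 22.9 and 44.2 CPM on AIN76A and 74.9, 89.1 and 64.4 CPM on NWD1. In these 3 genes both AIN76A libraries lay below all NWD1 libraries, and the highest NWD1 library was replicate 2 for Chd3 and Gclm and replicate 3 for Slc16a9.

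Ccnl1, a cyclin of the splicing machinery, had 5.94 and 10.1 CPM against 23.5, 27.5 and 17.9 CPM, and Sugp2, a protein with splicing-factor domains, had 2.32 and 3.75 CPM against 5.32, 7.91 and 8.23 CPM. The kinase gene Gsk3a had 6.79 and 10.6 CPM on AIN76A and 17.4, 19.3 and 15.4 CPM on NWD1. Sh2b3, an adaptor of cytokine receptor signalling, had 5.01 and 7.57 CPM against 10.7, 14.1 and 15.9 CPM. The other genes of this group, Slc30a10 (described with the calcium genes), Tmem189, Tmem165 and Ccdc90a, had log2 fold changes from 0.81 for Ccdc90a to 1.71 for Slc30a10.

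Among the 12 genes lower on NWD1, Tff3, a trefoil peptide of goblet cell mucus, had 4180 and 1387 CPM on AIN76A and 1113, 1091 and 1091 CPM on NWD1. AIN76A replicate 1 stood far above the rest, and AIN76A replicate 2 lay close to the NWD1 libraries. Guca2a, the peptide hormone guanylin, had 1534 and 648 CPM against 564, 392 and 508 CPM, and Clps, the colipase that helps lipase act on fat, had 836 and 464 CPM against 343, 262 and 268 CPM. Klk1, a kallikrein, showed the same pattern at 254 and 120 CPM against 89.6, 94.4 and 107 CPM.

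Ccl20, a chemokine of the epithelium over lymphoid follicles, had 6.61 and 18.2 CPM on AIN76A and 3.12, 2.75 and 5.38 CPM on NWD1, a log2 fold change of -1.74 (SE 0.48). Here AIN76A replicate 2 was the high library. Defa17, an alpha-defensin whose reads may be shared with near-identical family members, had 956 and 515 CPM against 297, 340 and 248 CPM. The other genes of this group were Ramp1, Pla2g10, Rps4y2, Pdia2, Fxyd3 and Mvk, with log2 fold changes from -1.33 for Pla2g10 to -0.82 for Mvk. In 11 of the 12 lower genes AIN76A replicate 1 was the highest library, Ccl20 being the exception.

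**Figure D3:**
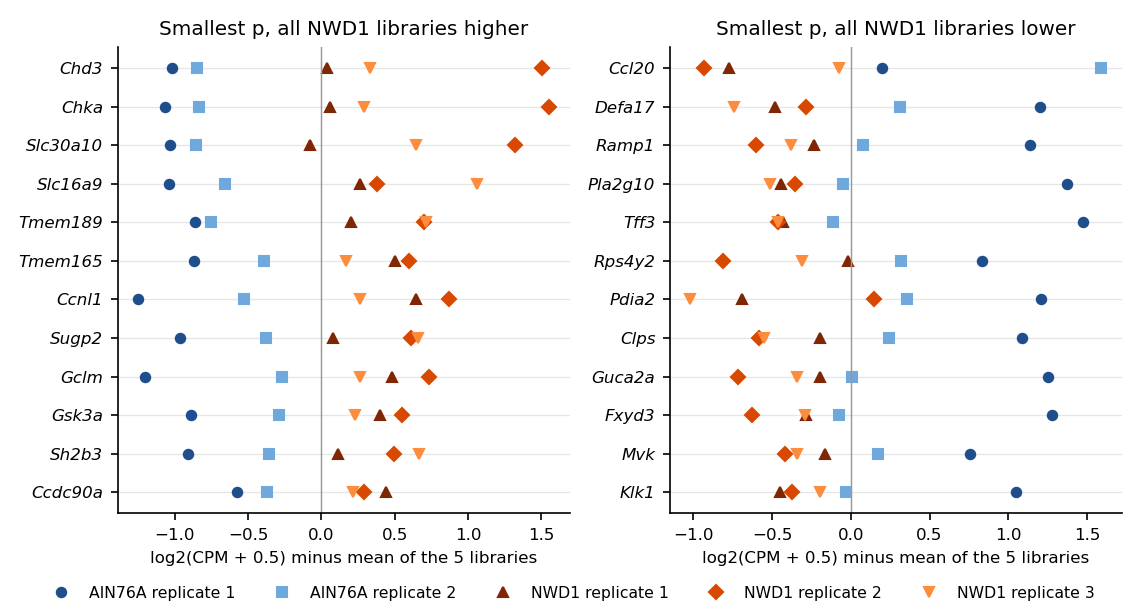
The 24 named genes by library (x axis, log2 of CPM plus 0.5, minus the mean of the 5 libraries), 12 higher (left) and 12 lower (right) in every NWD1 library. On the right, AIN76A replicate 1 is the highest point for every gene but Ccl20.

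The calcium list held single genes that were higher in every NWD1 library, with a median near that of all genes. Of 22 genes of vitamin D action and calcium handling, 16 were tested, and 9 were higher and 7 lower by fitted fold change. In every NWD1 library 6 of the list were higher (37.5%, against 11.4% of all genes). None passed the edgeR test with the filter on low counts. Without that filter edgeR called Trpv6 (adjusted p = 8.13e-13), S100g (0.000423) and Slc30a10 (0.00131), among 85 genes. The Trpv6 call rested on NWD1 replicate 2, with 759 counts against 18 or fewer in each other AIN76A or NWD1 library. That fit also called members of other lists. Examples are Tff3 and Spink4 (goblet), Defa17 and Defa26 (Paneth), Per2 and Dbp (circadian) and Laptm5 and Ccl5 (leukocyte). Vdr itself overlapped, at 397 and 573 CPM on AIN76A and 456, 493 and 613 CPM on NWD1. Cyp24a1, the hydroxylase that inactivates vitamin D and a classic Vdr target in kidney and gut, had at most 0.0725 CPM in any library.

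S100g, calbindin-D9k, which ferries calcium through the cytosol, had 104 and 39.2 CPM on AIN76A and 225, 384 and 137 CPM on NWD1. Its mean was 71.5 ± 45.7 CPM (SD, n = 2) on AIN76A and 248 ± 125 CPM (SD, n = 3) on NWD1, a log2 fold change of 1.80 (SE 0.67). The groups did not overlap, but NWD1 replicate 3 was only slightly above AIN76A replicate 1. Atp2b1, the calcium pump of the basolateral membrane, had 90.2 and 101 CPM against 118, 190 and 189 CPM. Trpv6, the apical calcium channel, was near 0 in 4 libraries, with 0.09 and 0 CPM on AIN76A and 0.372 and 0.465 CPM in NWD1 replicates 1 and 3. In NWD1 replicate 2, the female library, it reached 10.9 CPM. No fold is given for Trpv6, since AIN76A replicate 2 had no count.

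Slc30a10, a manganese exporter reported as a vitamin D target in intestine, had 16.5 and 18.7 CPM on AIN76A and 32.5, 86.3 and 53.8 CPM on NWD1. Its mean was 17.6 ± 1.5 CPM (SD, n = 2) against 57.5 ± 27.1 CPM (SD, n = 3), a log2 fold change of 1.71 (SE 0.45), and every NWD1 library lay well above both controls. Cyp3a11, a steroid and drug hydroxylase with close paralogs, had 320 and 392 CPM against 400, 1012 and 889 CPM, so that NWD1 replicate 1 was level with the higher control. Slc37a2, a sugar phosphate transporter, had 14 and 11.7 CPM against 15.5, 17.0 and 39.4 CPM. The 2 members lower without overlap (12.5%, against 8.61% of all genes) were Casr and Cldn2. Casr, the calcium-sensing receptor, had no more than 0.363 CPM. Cldn2, a claudin of the paracellular cation path, had 143 and 140 CPM against 126, 99.1 and 74.7 CPM. The abundant members Cldn15 and Pdia3 overlapped between the diets. The median log2 fold change of the list was 0.12. It was 0.02 without NWD1 replicate 3, 0.08 without NWD1 replicate 1, 0.31 without NWD1 replicate 2 and 0.58 without AIN76A replicate 2. Without AIN76A replicate 1 it was 0.07 over the members tested with all libraries, and 0.02 over those that passed the filter in that refit.

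Because Vdr binds DNA through AGGTCA-like half-sites, the 250 bases before the RefSeq start of these genes (GRCm38.p6) were read for AGGTCA on both strands. The word occurred in such windows of 3 of the 6 genes that were higher without overlap, Trpv6, S100g and Cyp3a11, against 5 of the 19 list genes with a window (26.3%), 13.4% of tested genes and 15.8% of all 27025 genes with one. The other 2 list genes that held it, Rxra and Cyp3a25, overlapped between the diets. It is a match of letters, not a site of binding, and the windows of Slc30a10, Atp2b1 and Slc37a2 held none. The 3 windows that hold it are shown 5′ to 3′ on the strand of the gene, with AGGTCA or its reverse complement TGACCT in capitals. Trpv6 is at chr6:41636406-41636655, S100g at chrX:162964600-162964849 and Cyp3a11 at chr5:145879855-145880104, all on the minus strand.
Trpv6: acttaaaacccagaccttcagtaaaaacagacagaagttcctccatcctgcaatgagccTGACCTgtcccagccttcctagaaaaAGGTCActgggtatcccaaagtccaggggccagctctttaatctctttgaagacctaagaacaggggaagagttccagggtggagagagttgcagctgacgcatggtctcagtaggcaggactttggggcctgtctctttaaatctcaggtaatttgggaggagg
S100g: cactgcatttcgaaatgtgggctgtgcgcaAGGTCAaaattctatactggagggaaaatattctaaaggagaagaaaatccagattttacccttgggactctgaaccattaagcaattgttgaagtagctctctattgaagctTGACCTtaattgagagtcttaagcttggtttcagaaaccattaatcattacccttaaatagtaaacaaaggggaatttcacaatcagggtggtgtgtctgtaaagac
Cyp3a11: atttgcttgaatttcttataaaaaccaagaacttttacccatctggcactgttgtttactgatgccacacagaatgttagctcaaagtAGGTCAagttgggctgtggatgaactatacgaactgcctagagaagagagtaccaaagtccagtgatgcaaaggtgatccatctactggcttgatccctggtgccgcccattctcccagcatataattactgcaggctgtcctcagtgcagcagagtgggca

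In Trpv6 the matches began 191 and 165 bases before the start, in S100g 220 and 107 bases, and in Cyp3a11 162 bases.

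**Figure D4:**
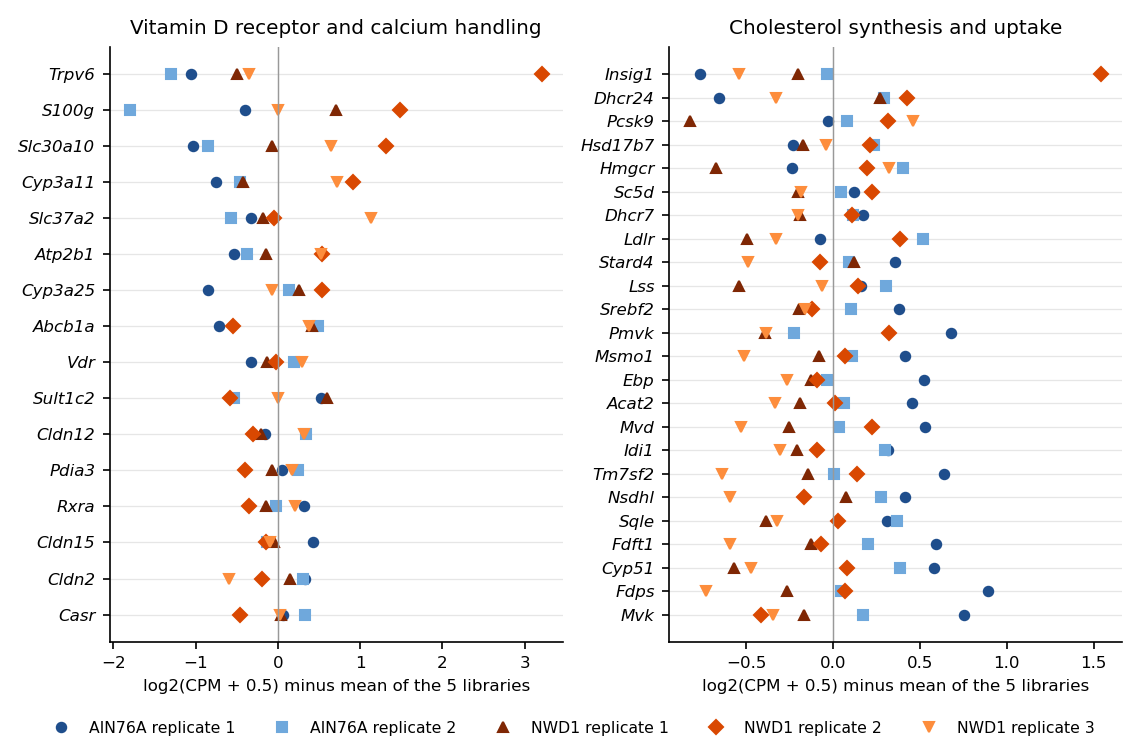
Tested members of the calcium list (left, 16 genes) and the cholesterol list (right, 24 genes) by library (x axis, log2 of CPM plus 0.5, minus the mean of the 5 libraries), ordered by fitted fold change. Slc30a10 and S100g are higher in every NWD1 library, and most cholesterol genes have both AIN76A libraries on the right.

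No gene of choline and methyl-group metabolism, whose nutrients NWD1 lowers, passed the edgeR test with the filter on low counts. Without it edgeR called Chka (adjusted p = 0.000603) and Tet1 (2e-06), among 85 genes of many lists. Of 17 choline and phosphatidylcholine genes tested, 9 were higher and 8 lower, with a median log2 fold change of 0.03. Chka (above) and Chpt1, the last enzyme of the CDP-choline route, were higher without overlap (11.8%, against 11.4% of all genes). Chpt1 had 90.4 and 103 CPM against 164, 125 and 108 CPM. The 4 lower without overlap (23.5%, against 8.61% of all genes) were the choline transporter genes Slc44a1, Slc44a2 and Slc44a3, and Pemt. Pemt, which makes phosphatidylcholine by methylation, had 5.15 and 3.82 CPM against 3.60, 2.81 and 2.06 CPM. The abundant members Pcyt1a, Pcyt2 and Lpcat3 overlapped.

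Of 28 one-carbon genes, 9 were higher and 19 lower (median -0.14). Without overlap 2 were higher (7.14%, against 11.4% of all genes) and 1 lower (3.57%, against 8.61%). Ahcyl1, a relative of the enzyme that clears S-adenosylhomocysteine, had 106 and 112 CPM against 137, 204 and 165 CPM, and Mthfd2l, a mitochondrial folate enzyme, was also higher without overlap at 2.07 CPM or less. Cbs, which commits homocysteine to cysteine synthesis, was the 1 member lower without overlap, at no more than 1.87 CPM. The abundant members Ahcyl2, Slc46a1, the folate transporter of the gut, and Cth overlapped. Of 13 DNA methylation genes, 9 were higher and 4 lower (median 0.09). Without overlap 2 were higher (15.4%, against 11.4% of all genes) and 0 lower. Tet1, which oxidises 5-methylcytosine, had 7.89 CPM in AIN76A replicate 1 and at most 0.559 CPM in the other 4 libraries, so 1 control library sets its fold change. The methyltransferase Dnmt3b, at 1.46 and 1.23 CPM against 1.59, 4.13 and 1.79 CPM, was higher without overlap. The abundant members Dnmt3a, Tet3 and Mbd1 overlapped.

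Cholesterol synthesis was lower on NWD1 in most of its genes. Of 24 members, 21 were lower and 3 higher. In every NWD1 library 12 were lower (50.0%, against 8.61% of all genes) and 0 were higher. The summed CPM of the list overlapped, at 1862 and 1687 on AIN76A and 1286, 1693 and 1209 on NWD1. Its median deviation was 0.11 in AIN76A replicate 2 and 0.09 in NWD1 replicate 2. The median log2 fold change was -0.42, and none passed the edgeR test after adjustment. Mvk, mevalonate kinase, had 30.4 and 20.1 CPM on AIN76A and 15.8, 13.2 and 13.9 CPM on NWD1. Its mean was 25.3 ± 7.25 CPM (SD, n = 2) against 14.3 ± 1.35 CPM (SD, n = 3), a log2 fold change of -0.82 (SE 0.27). The NWD1 libraries were tight and both controls lay above them.

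Cyp51, lanosterol demethylase, had 120 and 105 CPM against 53.7, 84.8 and 57.6 CPM, a log2 fold change of -0.78 (SE 0.30). Fdft1, squalene synthase, had 93.8 and 71.4 CPM against 56.8, 59.2 and 40.9 CPM, and Sqle, squalene epoxidase, had 79.0 and 82.2 CPM against 48.5, 64.8 and 50.7 CPM. Idi1, which isomerises the isoprene unit, had 14.5 and 14.3 CPM against 9.91, 10.8 and 9.23 CPM. In all these genes the 2 controls were above the 3 NWD1 libraries, and in Sqle and Idi1 the controls were nearly equal. Srebf2, the transcription factor that drives the pathway, had 124 and 102 CPM against 82.9, 87.3 and 84.9 CPM. The others without overlap were Lss, Msmo1, Nsdhl, Ebp, Dhcr7 and Acat2, with log2 fold changes from -0.56 for Nsdhl to -0.23 for Dhcr7. Of the abundant members, Sc5d overlapped.

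The direction of the list was the same with each library left out. Its median was -0.26 without AIN76A replicate 1, -0.33 without NWD1 replicate 3 and -0.54 without AIN76A replicate 2. Its median transcript length, 2921 bases, was close to that of all genes, 2885 bases, and with the length trend taken out 12 members were lower without overlap and the median was -0.41. On log2(TPM + 1), which lacks NWD1 replicate 3, the median was -0.14 where that of all genes was 0.12.

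The promoters of cholesterol genes often pair a sterol element with CCAAT boxes, which NF-Y binds, and CCAAT was read in the 250 bases before the RefSeq starts on both strands. It occurred in 15 of the 16 list genes with a window (93.8%), against 37.5% of all genes with a window and 40.6% of the tested genes with one. Among the 12 members lower without overlap, 10 had a window and 9 of these held CCAAT. The list genes with a window that were not lower without overlap, Pmvk, Mvd, Tm7sf2, Hsd17b7, Sc5d and Insig1, all held it too. The word thus did not set apart the lower genes, and a match of letters shows no binding. The windows of the 4 of smallest p among the 10 are shown 5′ to 3′ on the strand of the gene, with CCAAT or its reverse complement ATTGG in capitals. Mvk is at chr5:114444019-114444268, Nsdhl at chrX:72918271-72918520 and Idi1 at chr13:8885356-8885605 on the plus strand, and Cyp51 at chr5:4104698-4104947 on the minus strand, in GRCm38.p6.
Mvk: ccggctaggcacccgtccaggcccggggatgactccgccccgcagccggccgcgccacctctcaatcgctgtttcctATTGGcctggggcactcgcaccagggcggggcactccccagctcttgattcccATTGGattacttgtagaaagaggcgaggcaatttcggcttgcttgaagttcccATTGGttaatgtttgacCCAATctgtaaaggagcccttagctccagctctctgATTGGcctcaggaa
Cyp51: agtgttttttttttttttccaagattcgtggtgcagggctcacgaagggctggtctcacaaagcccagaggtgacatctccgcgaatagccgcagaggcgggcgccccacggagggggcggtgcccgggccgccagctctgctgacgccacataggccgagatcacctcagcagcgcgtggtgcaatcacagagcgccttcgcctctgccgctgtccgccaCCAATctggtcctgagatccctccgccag
Nsdhl: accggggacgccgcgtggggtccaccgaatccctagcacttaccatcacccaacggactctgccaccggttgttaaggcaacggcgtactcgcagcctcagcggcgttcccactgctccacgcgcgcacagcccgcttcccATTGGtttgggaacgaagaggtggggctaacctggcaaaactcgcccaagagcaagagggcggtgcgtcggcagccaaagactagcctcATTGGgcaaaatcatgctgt
Idi1: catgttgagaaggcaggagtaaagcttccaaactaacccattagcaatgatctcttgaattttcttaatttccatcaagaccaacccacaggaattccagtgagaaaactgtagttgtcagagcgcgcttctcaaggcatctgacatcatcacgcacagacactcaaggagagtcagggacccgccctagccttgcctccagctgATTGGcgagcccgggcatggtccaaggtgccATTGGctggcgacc

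Mvk held 5 matches, Nsdhl and Idi1 2 each and Cyp51 1, at 29 bases before the start.

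Other lipid lists had medians nearer 0. Of 17 fatty acid synthesis genes, 11 were lower and 6 higher (median -0.14). Scd2, Elovl5 and Hacd3 were lower without overlap (17.6%, against 8.61% of all genes). With the length trend taken out, 14 were lower and 3 higher, and the median was -0.22. Without overlap 6 of the 17 were then lower, against 1554 of 14626 genes. The median was -0.24 without AIN76A replicate 1 and -0.00 without AIN76A replicate 2. Scd2, a desaturase, had 9.69 and 9.87 CPM against 6.21, 3.12 and 8.43 CPM, and Elovl5, an elongase, 30.4 and 30.8 CPM against 21.3, 26.9 and 20.1 CPM. The abundant members Elovl1, Elovl6 and Tecr overlapped. Of 30 genes of fatty acid oxidation and PPAR targets, 18 were higher and 12 lower (median 0.13, and -0.04 without AIN76A replicate 1). Acadl, a long-chain acyl-CoA dehydrogenase, at 142 and 328 CPM against 417, 385 and 359 CPM, was the 1 member higher without overlap. Fabp1, Ucp2 and Hadh, the most abundant members, overlapped, as did Acot2.

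Of 24 lipid absorption genes, 19 were higher and 5 lower, with a median of 0.18. The median was 0.62 without AIN76A replicate 2, 0.06 without AIN76A replicate 1 and 0.02 without NWD1 replicate 2, so its size depended on single libraries. Dgat2 and Dgat1, which complete triglyceride synthesis, were higher without overlap (8.33%, against 11.4% of all genes). Dgat2 had 301 and 558 CPM against 700, 936 and 560 CPM, and Dgat1 had 425 and 684 CPM against 852, 730 and 860 CPM. In both, AIN76A replicate 1 was the lowest library. Mogat2, the preceding acyltransferase, was lower without overlap, at 1419 and 1315 CPM against 1239, 1241 and 1274 CPM. The apolipoproteins Apoa1 and Apoa4 and the transporter Slc27a4 overlapped.

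Stem cell genes showed no order by diet. Of 22 crypt base stem cell genes, 12 were higher and 10 lower (median 0.19, and 0.10 with the length trend taken out). Lgr5, the receptor that marks crypt base columnar cells, had 3.01 and 11.6 CPM on AIN76A and 10.7, 4.37 and 6.17 CPM on NWD1. Olfm4, a secreted glycoprotein of the same cells, had 314 and 726 CPM against 807, 273 and 375 CPM, and Ascl2, their transcription factor, 3.47 and 7.59 CPM against 16.3, 5.08 and 2.86 CPM. AIN76A replicate 2 and NWD1 replicate 1 were the high libraries for Lgr5, Olfm4 and Ascl2, and the other 3 were low. The list median was 0.66 with AIN76A replicate 2 left out and -0.11 with NWD1 replicate 1 left out and -0.10 without AIN76A replicate 1, so its sign depended on single libraries. Smoc2 and Prom1 overlapped, Axin2 was higher and Nrn1 lower without overlap.

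Of 11 reserve stem cell genes, 5 were higher and 6 lower (median -0.05). Hopx, a homeodomain protein of that population, had 109 and 88.9 CPM against 103, 78.3 and 64.0 CPM. Lrig1, an inhibitor of ErbB receptors, had 8.64 and 6.60 CPM against 8.59, 3.58 and 7.04 CPM, and the telomerase gene Tert 2.38 and 3.12 CPM against 2.79, 2.65 and 2.92 CPM. These genes overlapped between the diets, as did Bmi1. Krt19, a keratin, had 3282 and 2059 CPM against 2074, 983 and 1326 CPM, with NWD1 replicate 1 just above AIN76A replicate 2. Cd24a also overlapped and Clu, at 1.59 CPM or less, was higher without overlap.

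Paneth cell products were lower on NWD1 in most members. Of 21 tested, 18 were lower and 3 higher, and 6 were lower without overlap (28.6%, against 8.61% of all genes) and 0 higher. As a list the libraries overlapped, with a median deviation of 0.02 in AIN76A replicate 2 and 0.05 in NWD1 replicate 3. The median log2 fold change was -0.74. Lyz1, lysozyme, had 13564 and 10405 CPM on AIN76A and 8143, 4921 and 8079 CPM on NWD1, a log2 fold change of -0.77 (SE 0.40). Defa24, the most abundant alpha-defensin here, had 16931 and 11008 CPM against 7973, 6507 and 6779 CPM, and Itln1, a lectin, 7215 and 4561 CPM against 2867, 2389 and 3454 CPM. In Lyz1, Defa24 and Itln1 AIN76A replicate 1 was highest, AIN76A replicate 2 next and the NWD1 libraries lowest.

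The other members without overlap were Defa17, Defa20 and Defa26. For Defa20 and Defa26, NWD1 replicate 3 stood apart, at 2.32 and 6.51 CPM, where the other 4 libraries were at 87.3 CPM or more and 37.1 CPM or more. Defensin genes are near copies of each other and their counts may be split between copies. Reg3g, an antimicrobial lectin, had 2105 and 1632 CPM against 870, 749 and 6215 CPM, so NWD1 replicate 3 alone was high. The list is short in sequence, with a median transcript length of 740 bases, and with the length trend taken out its median was -0.54. It was -0.38 without AIN76A replicate 1.

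Goblet cell products were lower in 20 of 23 members, 9 of them without overlap (39.1%, against 8.61% of all genes), and 1 was higher without overlap (4.35%, against 11.4%). Their summed CPM overlapped, at 23719 and 11469 on AIN76A and 6970, 9713 and 11771 on NWD1. The median of -0.83 was -0.27 without AIN76A replicate 1 and -1.24 without AIN76A replicate 2, so AIN76A replicate 1 set much of its size. Zg16, a lectin of the mucus, had 7556 and 3331 CPM against 2067, 3324 and 2254 CPM, with NWD1 replicate 2 level with AIN76A replicate 2. Agr2, which folds mucins, had 1790 and 718 CPM against 564, 520 and 690 CPM, and Muc2, the main mucin, overlapped at 708 and 434 CPM against 221, 612 and 422 CPM. Fcgbp overlapped too, and its highest library was NWD1 replicate 3 at 3088 CPM. Foxa3, a goblet cell transcription factor, had 57.8 and 29.9 CPM against 24.5, 21.5 and 27.5 CPM. With the length trend taken out the median was -0.69 and 4 members were lower without overlap.

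Enteroendocrine genes were split in direction. Of 36 enteroendocrine genes, 19 were higher and 17 lower (median 0.04, from -0.12 without AIN76A replicate 1 to 0.29 without AIN76A replicate 2), with Chga at 379 and 533 CPM against 395, 627 and 415 CPM. Scg2, a granin, was lower without overlap, at 25.9 and 25.6 CPM against 19.8, 8.09 and 14.9 CPM, and Pax4, an endocrine transcription factor, was higher at 1.12 and 1.35 CPM against 1.92, 2.52 and 2.32 CPM. The abundant members Chgb, Gip and Ddc overlapped.

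Of 23 tuft cell genes, 17 were higher (73.9%, against 50.6% of all genes) and 6 lower (median 0.05), and 0 were without overlap. Dclk1, a kinase of tuft cells, had 42.5 and 33.8 CPM against 48.8, 22.0 and 44.7 CPM. The summed CPM of the list was 529 and 292 on AIN76A and 643, 231 and 368 on NWD1, so that the 2 replicates 1 were high whatever the diet. Its median was 0.80 without AIN76A replicate 1 and -0.28 without AIN76A replicate 2. Trpm5, Rgs13, Pou2f3 and Il17rb overlapped.

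Of 28 absorptive enterocyte genes, 22 were higher (78.6%, against 50.6% of all genes) and 6 lower (median 0.17). Alpi, the brush border alkaline phosphatase, had 2096 and 3283 CPM against 3894, 4716 and 4279 CPM and was higher without overlap. Sis, sucrase-isomaltase, was lower without overlap at 3813 and 2788 CPM against 1956, 2618 and 2406 CPM. Tmprss15, enteropeptidase, overlapped at 2.05 and 8.63 CPM against 7.62, 25.9 and 32.1 CPM. The median was 0.51 without AIN76A replicate 2 and -0.04 without AIN76A replicate 1. Of 12 epithelial identity genes, 4 were higher and 8 lower (median -0.29). Without overlap Epcam was higher (8.33%, against 11.4% of all genes) and Krt8, Cldn3 and Elf3 lower (25.0%, against 8.61%). Krt8 had 3530 and 2754 CPM against 2430, 1743 and 2079 CPM, and Vil1 overlapped.

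**Figure D5:**
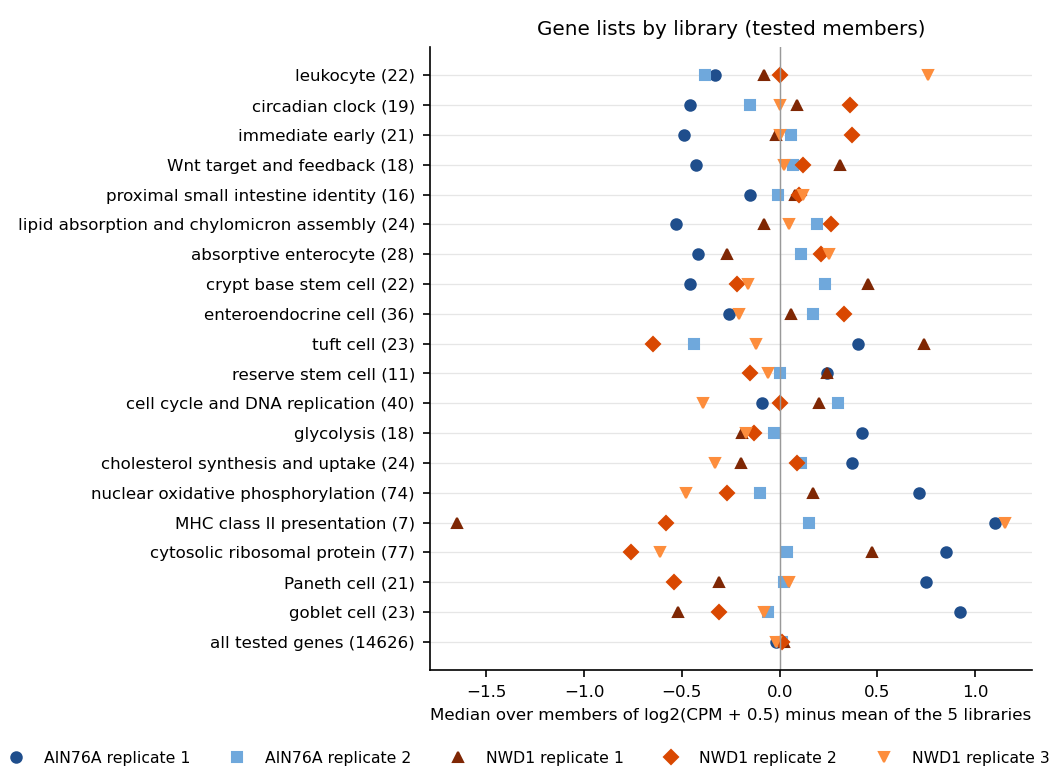
Median over tested members of each list (number in brackets) of log2 of CPM plus 0.5 minus the mean of the 5 libraries (x axis), 1 point a library. AIN76A replicate 1 is highest for goblet and Paneth genes at 0.92 and 0.75, and in goblet genes AIN76A replicate 2, at -0.06, lies just above the highest NWD1 library, at -0.08, and in Paneth genes NWD1 replicate 3, at 0.05, lies above AIN76A replicate 2, at 0.02.

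Growth and energy genes followed single libraries more than diet. All 77 cytosolic ribosomal protein genes had a fitted fold change below 0 (median -0.70), but 0 of 77 were lower in every NWD1 library. Their summed CPM was 12038 and 6950 on AIN76A and 9142, 3919 and 4465 on NWD1, so NWD1 replicate 1 lay between the controls. Rps14, for example, had 390 and 194 CPM against 246, 81.1 and 130 CPM. These are short transcripts, with a median length of 937 bases, and with the length trend taken out the median was -0.49. Leaving out AIN76A replicate 1 gave -0.23, and leaving out NWD1 replicate 1 gave -1.21. Rps3, Rpl4, Rplp0 and Rps15 had the same order of libraries as Rps14.

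Nuclear oxidative phosphorylation genes were lower in 72 of 74 members (median -0.52), and 5 were without overlap (6.76%), a smaller share than the 8.61% of all genes. Atp5b, a subunit of ATP synthase, had 6722 and 5143 CPM against 4912, 4568 and 4679 CPM and was lower without overlap. The median length of 892 bases was again short. The median was -0.30 with the length trend taken out and -0.08 without AIN76A replicate 1. Ndufb6 and Ndufb7, with the smallest p, overlapped.

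Of 11 transcripts of the mitochondrial genome, 3 were higher and 8 lower (median -0.14, and 0.03 without NWD1 replicate 3). Their median length was 957 bases, and with the length trend taken out the median was 0.05. mt-Nd1, mt-Co1 and mt-Cytb overlapped, with NWD1 replicate 3 lowest in each, at 2427, 2933 and 3159 CPM. Of 18 glycolysis genes, 16 were lower and 2 higher (median -0.29, and -0.10 without AIN76A replicate 1). Ldha, lactate dehydrogenase, had 8110 and 5419 CPM against 4871, 4636 and 4809 CPM and was the 1 member without overlap. Gapdh, Pkm and Hk2 overlapped.

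Of 40 cell cycle genes, 30 were lower and 10 higher (median -0.22). Without overlap 9 were lower (22.5%, against 8.61% of all genes) and 0 higher. Ccnb1, the cyclin of entry into mitosis, had 54.2 and 61.0 CPM against 41.3, 39.1 and 26.7 CPM, a log2 fold change of -0.69 (SE 0.30). Top2a had 51.0 and 74.3 CPM against 49.0, 50.9 and 43.8 CPM, and Plk1, a mitotic kinase, 49.3 and 57.5 CPM against 36.9, 47.3 and 24.1 CPM. NWD1 replicate 3, the shallowest library, was the lowest for all of these. The replication genes Mcm6 and Pcna overlapped. The median was 0.02 with AIN76A replicate 2 left out and -0.13 with NWD1 replicate 3 left out.

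Wnt target and feedback genes were higher in 14 of 18 members (median 0.38). Without overlap 4 were higher (22.2%, against 11.4% of all genes) and 1 lower (5.56%, against 8.61%). Sp5, a direct target of beta-catenin, had 2.23 and 5.47 CPM against 10.6, 7.07 and 8.57 CPM, and Apc, the scaffold that limits beta-catenin, 26.3 and 27.6 CPM against 33.5, 45.9 and 43.9 CPM. Axin2 had 2.41 and 4.38 CPM against 5.86, 4.5 and 4.38 CPM, with NWD1 replicate 3 level with AIN76A replicate 2 to the digits shown, and Nkd1 was higher at 1.47 CPM or less. Ctnnb1 and Tcf7l2 overlapped. The median transcript length was 3910 bases, and with the length trend taken out the median was 0.28, with 3 higher and 1 lower without overlap. It was 0.79 without AIN76A replicate 2 and 0.20 without AIN76A replicate 1.

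Of 15 Notch pathway genes, 7 were higher and 8 lower (median -0.02, and -0.13 with the length trend taken out). Nrarp, a feedback inhibitor of Notch, had 3.31 and 4.33 CPM against 10.5, 11.5 and 6.31 CPM and was higher without overlap, with Notch1. Atoh1, the transcription factor of secretory fate, overlapped at 51.0 and 28.9 CPM against 20.9, 25.7 and 32.2 CPM, as did Dll1 and Adam10.

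Proximal identity genes were higher in 11 of 16 members (median 0.30), 3 of them without overlap (18.8%, against 11.4% of all genes). Gata4, a transcription factor of duodenum and jejunum, had 42.1 and 85.1 CPM against 112, 136 and 144 CPM, a log2 fold change of 1.04 (SE 0.46). Onecut2 and Pdx1 were the other 2, Onecut2 at 47.0 and 42.8 CPM against 57.1, 87.3 and 59.3 CPM. Rbp2, Dmbt1 and Fabp1 overlapped. The median was 0.03 without NWD1 replicate 2. Of 10 distal genes, 4 were higher and 6 lower (median -0.22, and 0.12 without AIN76A replicate 2). Fabp6, the ileal bile acid binding protein, had 60.4 and 134 CPM against 202, 18.7 and 8.57 CPM, an order that crossed the diets, and Nr1h4 was lower by less than the spread of the controls. Osr2, Pyy and Cubn overlapped. The length of gut taken for each library is not given in the labels.

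Immediate early genes, which respond to tissue dissociation, were higher in 16 of 21 members (median 0.44), 4 without overlap (19.0%, against 11.4% of all genes). Jun had 8.61 and 23.6 CPM against 34.2, 48.6 and 34.5 CPM, and Jund 3.83 and 7.40 CPM against 15.4, 15.8 and 10.8 CPM. Ier5 and Nr4a2 were the other 2, and Fosb, at 0.342 CPM or less, was lower. Klf6, Zfp36 and Btg2 overlapped. Their median was 0.14 with either AIN76A replicate 1 or NWD1 replicate 2 left out. The part of tissue handling in these values was not tested.

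Circadian genes were higher in 17 of 19 members (median 0.69), but only Per2, a repressor of the clock, did not overlap, at 3.29 and 3.70 CPM against 5.69, 20.8 and 6.24 CPM. The members did not peak in the same NWD1 library. Dbp, Tef and Nr1d2 were highest in NWD1 replicate 1, at 16.1, 37.2 and 41.7 CPM. Arntl, which peaks in opposite phase to them, was highest in NWD1 replicates 2 and 3, at 75.5 and 66.9 CPM against 17.8 CPM in replicate 1 and 28.6 and 37.7 CPM on AIN76A. Npas2 and Nfil3 were also highest in those libraries. Dbp, Tef, Nr1d2, Arntl, Npas2 and Nfil3 were picked after their values were seen. Nr1d1 and Bhlhe40 overlapped. The list median was 1.44 with AIN76A replicate 2 left out and 0.36 with NWD1 replicate 1 left out. With the length trend taken out it was 0.64. The hour of tissue collection is not in the labels, and its part was not tested.

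The remaining stress lists leaned little. Of 24 unfolded protein response genes, 8 were higher and 16 lower (median -0.24), with Pdia6 at 416 and 272 CPM against 213, 174 and 260 CPM. Pdia6 and Canx were lower without overlap (8.33%, against 8.61% of all genes), and Hspa5, Calr and Edem1 overlapped. Of 14 heat shock genes, 4 were higher and 10 lower (median -0.14). Hsp90ab1 and Hspd1 were lower without overlap (14.3%, against 8.61% of all genes), while Hspa8 and Hspb1 overlapped. Hspd1 had 295 and 267 CPM against 255, 212 and 212 CPM. Of 19 p53 targets, 9 were higher and 10 lower (median -0.06). Aen was lower without overlap, and Cdkn1a, Sesn1, Eda2r and Btg2 overlapped. Of 21 Nrf2 antioxidant genes, 11 were higher and 10 lower (median 0.21). Gclm and Gclc, the 2 subunits of glutamate-cysteine ligase, were both higher without overlap (9.52%, against 11.4% of all genes). Gclc had 10.4 and 8.87 CPM against 17.3, 12.3 and 10.9 CPM, and Prdx1, Cat, Nfe2l2 and Txnrd1 overlapped. The Nrf2 median was -0.02 without NWD1 replicate 1 and 0.00 without NWD1 replicate 3.

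Immune genes varied between libraries within a diet. MHC class II genes were lower in 6 of 7 members (median -0.64, and -0.33 with the length trend taken out) but 0 were without overlap. Cd74, the invariant chain, had 343 and 140 CPM on AIN76A and 28.5, 71.8 and 302 CPM on NWD1. NWD1 replicate 3 lay between the controls and the other 2 NWD1 libraries below both, and the list median was -1.54 without it and 0.04 without AIN76A replicate 1. H2-Aa and H2-Ab1 had the same split. Of 12 MHC class I genes, 7 were higher and 5 lower (median 0.06), and B2m, H2-K1, H2-D1, Psmb10 and Nlrc5 overlapped. Of 33 interferon response genes, 20 were higher and 13 lower (median 0.06, from -0.23 without NWD1 replicate 3 to 0.33 without NWD1 replicate 1). Irf1, Irf7, Psmb8 and Oas1a overlapped, and Mx1, at 0.664 CPM or less, was higher without overlap.

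Of 20 epithelial chemokine and cytokine genes, 10 were higher and 10 lower (median -0.10, from -0.55 without NWD1 replicate 3 to 0.31 without AIN76A replicate 2). Nfkbia, the feedback inhibitor of NF-kappaB, had 71.2 and 119 CPM against 55.1, 55.8 and 53.1 CPM and was lower without overlap, as was Ccl20 (above). Both are NF-kappaB targets, and AIN76A replicate 2 was the highest library for each. Nos2, Sprr2a1 and Tnf, picked after their values were seen, were also highest in AIN76A replicate 2, Nos2 at 50.1 CPM against 1.04 CPM in AIN76A replicate 1 and 7.10 CPM or less on NWD1. Reg3b had 1657 and 1396 CPM against 1038, 881 and 10368 CPM, again high in NWD1 replicate 3, and Ccl25 overlapped.

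Leukocyte genes were higher in 21 of 22 members, 7 without overlap (31.8%, against 11.4% of all genes), with a median of 1.54, at low levels. The median was 0.90 with an i5 index term, 0.69 with a replicate block and 0.43 on log2(TPM + 1). Their summed CPM was 38.8 and 29.7 on AIN76A and 57.7, 26.3 and 65.9 on NWD1, so NWD1 replicate 2 was the lowest library and the sums overlap. Laptm5 had 0.018 and 0.121 CPM against 0.352, 0.935 and 2.19 CPM, and Nkg7, of cytotoxic lymphocytes, 0.126 and 0.0967 CPM against 0.207, 0.619 and 1.66 CPM. Cd3e, of T cells, was at most 0.302 CPM outside NWD1 replicate 3, where it was 1.39 CPM. Ptprc, Rac2 and Lcp1 overlapped, and Ptprc and Rac2 were highest in NWD1 replicate 1, the library highest in tuft cell genes. The part of these traces in the other immune lists was not tested. The median was 1.09 without NWD1 replicate 3 and 2.15 without NWD1 replicate 2.

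Stromal, endothelial, muscle and glial markers were near 0. Of 20, 8 were tested, 4 higher and 4 lower (median -0.03), and their summed CPM lay between 7.67 and 13.8, with Vim between 4.45 and 9.31 CPM. Col1a1, of fibroblasts, was at most 0.0664 CPM, and Pdgfrb overlapped while Tagln, of smooth muscle, was higher without overlap at 3.19 CPM or less. Of 5 erythrocyte genes, 1 was higher and 4 lower (median -0.57, and -0.20 with the length trend taken out). Their summed CPM was between 3.68 and 12.4. Hbb-b1 was highest in AIN76A replicate 1 at 5.71 CPM. The haemoglobin genes Hba-a1, Hba-a2 and Hbb-b2 overlapped as well. The erythrocyte median was 0.57 without AIN76A replicate 1, and the stromal median 1.57 without AIN76A replicate 2.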

How the data were processed

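RNA of sorted Bmi1-marked cells was made into SMART-Seq v4 and Nextera XT paired-end libraries, per the labels' protocols. The authors used STAR 2.4.2a, HTSeq 0.6.1 and edgeR with the build mm9, per the submitters' processing notes. The annotation, strand setting and filters are not given in the sources used here. The kit does not mark strand, so overlapping and antisense genes cannot be told apart. The deposited counts per gene cover 37310 genes and 7 libraries. A second deposited table holds TPM values, which sum to 1000000 a column, and 1 of its columns was not used.

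Counts were tested with edgeR 4.0.16 in R 4.3.3 (TMM, filterByExpr, robust quasi-likelihood F test, diet as the only term, 7 libraries, 4 residual degrees of freedom, biological coefficient of variation 0.363), with Benjamini-Hochberg adjustment over 14626 genes and a threshold of 0.05. The standard error was derived from the F statistic. Alternatives used DESeq2 1.42.0, limma 3.58.1 voom, limma on log2(TPM + 1) and log2(TPM + 0.1) with genes at 1 TPM in at least 2 libraries, and other scalings, filters and terms. The test was run on simulated counts with 200 changed genes.

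Of 878 symbols in 38 gene lists, 868 matched, 6 were left out as ambiguous and 4 had no match. A list is described by its counts and its median, without a test. With a library left out, the lowest and highest median of a list are over the members that passed the filter in that refit. These members can differ from those tested with all libraries. "Without overlap" means that every NWD1 library lies on the same side of both AIN76A libraries. The comparison and the lists were chosen with earlier results of these data known. Named genes are the 12 of smallest p in each direction without overlap and with a mean log2 CPM that reached 2, the 3 most abundant and 2 of smallest p in each list, 19 genes named for their role, and genes called by a test that called 5 or fewer. Symbols that look like clone or predicted-gene names were not eligible for the 12. Other genes named, such as list members without overlap, were picked after their values were seen. CPM is not per length, so levels are compared between libraries and not between genes. Promoter windows are from RefSeq on GRCm38.p6. Counts on mm9 have no coordinates here. Transcript lengths are from GENCODE M21, and 14130 of the tested genes have one. A few list members that the naming rule selects are not reported here.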

Additional observations from a re-analysis of the deposited data

How the results depend on the processing

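No setting reversed any of the 24 named genes of smallest p. Of their values 8 passed the threshold, all 8 without the filter on low counts. Other genes named for their role were judged by whether the fold change moved by less than its standard error, and 14 of their values moved. Among these role genes, Trpv6 and S100g also passed the threshold without that filter. By these rules the other 772 values counted as unchanged. Of the list medians, 668 stayed within the spread between libraries and 92 moved. The cause was not tested. DESeq2 called 1 gene, edgeR without the filter 85, and log2(TPM + 1) 1 gene with and without its filter. With each library left out in turn the count of called genes was 0. Without overlap, 2633 genes were higher and 674 lower of 11427 on log2(TPM + 1), which lacks NWD1 replicate 3. Without its filter 4346 of 24340 were higher. With library size alone 713 of 14626 were lower.

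On log2(TPM + 0.1), log2(TPM + 1) and log2(TPM + 1) without a filter, in that order, the medians were 0.13, 0.12 and 0.02 for one-carbon genes, 0.16, 0.15 and 0.09 for choline, 0.21, 0.17 and 0.17 for DNA methylation, -0.15, -0.14 and -0.14 for cholesterol, 0.48, 0.47 and 0.47 for lipid absorption, -0.07, -0.07 and -0.07 for glycolysis, 0.04, 0.04 and -0.00 for the unfolded protein response, 0.08, 0.08 and 0.08 for heat shock, 0.19, 0.14 and 0.13 for p53 targets, 0.60, 0.43 and 0.29 for leukocytes, and -0.12, -0.12 and -0.12 for epithelial identity. The stromal median was 0.68 and 0.49 on the first and second scale.

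With library size alone the medians were -0.03 for one-carbon, 0.13 for choline, 0.19 for DNA methylation and 0.05 for p53. With limma voom they were 0.13 for proximal, 0.42 for circadian and 1.08 for leukocyte genes. With an i5 index term they were -0.01 for choline, 0.02 for p53 and 0.90 for leukocytes. With a sex term they were 0.31 for vitamin D, 0.02 for proximal, 2.11 for leukocyte, 0.31 for stromal and -1.20 for erythrocyte genes. With the length trend removed they were -0.03 for choline and -0.02 for DNA methylation.

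The labels do not say that equal replicate numbers pair libraries, and deviations correlated at 0.297 for number 1 and 0.063 for number 2. AIN76A replicate 2 correlated at 0.233 with NWD1 replicate 3. The deviations of the 2 AIN76A libraries mirror each other, so these values are not separate and cannot tell whether numbers pair libraries. With the replicate block 0 genes were called and 557 had an unadjusted p under 0.05, against 500 without it. The block gave medians of -0.03 for choline, 0.01 for p53, -0.70 for chemokine, 0.69 for leukocyte and 0.19 for stromal genes.

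Leaving out 1 library at a time, the genes without overlap were fewest without NWD1 replicate 2, at 2175 higher and 1856 lower of 14248. They were most without AIN76A replicate 2, at 4632 higher and 4682 lower of 15580. With fewer libraries a gene fails to overlap more easily, so these counts do not compare with the 1673 and 1260 of all 5 libraries. The list medians ranged from 0.04 to 0.21 for DNA methylation, -0.11 to 0.33 for Notch, -0.92 to -0.38 for Paneth, 0.20 to 0.79 for Wnt, -0.04 to 0.51 for enterocyte, -0.12 to 0.13 for choline, 0.36 to 1.44 for circadian, -0.11 to 0.66 for crypt base, -1.20 to 0.57 for erythrocyte and -0.51 to -0.10 for glycolysis genes. They ranged from -1.24 to -0.27 for goblet, -0.30 to 0.17 for heat shock, 1.09 to 2.15 for leukocyte, 0.02 to 0.62 for lipid absorption, -0.87 to -0.08 for oxidative phosphorylation, -0.05 to 0.05 for p53, 0.03 to 0.36 for proximal, -0.31 to -0.14 for epithelial identity, -0.21 to 1.57 for stromal, -0.28 to 0.80 for tuft and 0.02 to 0.58 for vitamin D genes. With 2 control libraries, small changes were not detectable, and NWD1 replicate 3 had the fewest counts.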
